A study of Mus musculus with 4 samples.

Results

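The AP-1 transcription factor family was examined as 10 genes, Fos, Fosb, Fosl1, Fosl2, Jun, Junb, Jund, Atf3, Batf and Maff, of 18193 genes measured on mouse Affymetrix arrays. Members were the probe sets for which the platform annotation gives exactly 1 gene symbol, equal to one of these names, and all 10 were found, with 14 probe sets in all. For each gene the brightest probe set, by its mean over the 4 arrays, gave the main value, and the second probe sets of Fosl1, Fosl2, Jun and Jund are given beside it. The cells were haematopoietic stem cells (HSC) sorted as KLS CD48- CD150+. They came from adult mice given tamoxifen to start recombination, and were taken 2 weeks later. The 2 Rb family deficient pools carry the genotype label Rb -/- p130 -/- p107-/- and the 2 wild type pools the label Rb +/+ p130 +/+ p107-/-, so the loss of p107 is shared by both groups. The submitters' design text gives 3 mice for each pool. The sample descriptions also carry numbered codes that differ between the pools of a group, and what these numbers count is not explained in the sources used here. The promoter that drove the recombinase, the mice's strain and their exact age are unstated in the sources used here. The labels do not say whether any mouse entered more than 1 pool, so the p-values measure only the spread between these pools.

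AP-1 is a dimer of basic leucine zipper (bZIP) proteins. Fos proteins cannot pair with themselves and bind DNA with a Jun partner, while Jun proteins can pair with each other or with Fos, ATF or BATF proteins. The dimers read a short palindrome in promoters and enhancers, and Fos, Fosb, Junb and Atf3 are classical immediate early genes, whose transcripts appear and decay quickly after a cell is stimulated. In blood cells AP-1 factors take part in cytokine responses, myeloid differentiation and the control of proliferation, and Junb restrains the expansion of HSC in mice.

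Start regions are shown for the 3 members with at least a 2-fold difference (Fos, Fosb and Jund) and, beside them, for Jun, whose probe sets disagreed, and Atf3, which was high in a single pool, because genes of this family are classically switched on through short elements close to the start. The RefSeq windows (GRCm38.p6) held 9 of the 10 members, and the 250 bases before the annotated start are printed 5′ to 3′ on the gene's strand for these 5: Fos at chr12:85473640-85473889 (plus strand), Fosb at chr7:19310046-19310295 (minus strand), Jund at chr8:70697489-70697738 (plus strand), Jun at chr4:95052223-95052472 (minus strand) and Atf3 at chr1:191183334-191183583 (minus strand). Capitals mark TGACG, the core of the cAMP response element, on either strand, TGACATCA, a variant of the AP-1 palindrome, and, in Fos, TATAAA. The Jund window held none of the motifs searched and has no capitals.
Fos: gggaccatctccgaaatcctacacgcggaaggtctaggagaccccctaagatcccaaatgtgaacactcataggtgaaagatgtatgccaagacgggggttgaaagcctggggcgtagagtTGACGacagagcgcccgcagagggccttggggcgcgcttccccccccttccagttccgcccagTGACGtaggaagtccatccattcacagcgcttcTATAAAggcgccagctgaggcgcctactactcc
Fosb: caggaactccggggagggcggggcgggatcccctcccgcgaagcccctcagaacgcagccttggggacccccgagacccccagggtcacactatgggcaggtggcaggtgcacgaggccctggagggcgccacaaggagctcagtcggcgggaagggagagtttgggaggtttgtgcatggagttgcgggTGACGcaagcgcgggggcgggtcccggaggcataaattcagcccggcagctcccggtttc
Jund: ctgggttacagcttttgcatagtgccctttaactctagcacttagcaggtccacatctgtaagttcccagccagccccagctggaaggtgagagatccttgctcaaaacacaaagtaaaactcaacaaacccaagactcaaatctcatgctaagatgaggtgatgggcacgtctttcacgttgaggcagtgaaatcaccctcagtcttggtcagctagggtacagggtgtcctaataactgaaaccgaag
Jun: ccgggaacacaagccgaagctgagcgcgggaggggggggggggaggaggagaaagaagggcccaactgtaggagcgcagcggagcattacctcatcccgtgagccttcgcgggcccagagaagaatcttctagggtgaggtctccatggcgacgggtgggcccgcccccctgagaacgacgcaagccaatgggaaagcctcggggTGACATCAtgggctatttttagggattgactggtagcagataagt
Atf3: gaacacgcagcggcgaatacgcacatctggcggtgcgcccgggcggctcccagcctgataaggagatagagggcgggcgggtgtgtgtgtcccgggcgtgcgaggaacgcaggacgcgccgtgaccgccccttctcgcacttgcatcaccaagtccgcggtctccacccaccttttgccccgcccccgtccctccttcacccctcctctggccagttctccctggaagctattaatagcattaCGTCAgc
Letters were searched on both strands. TGACG was found in 7 of the 11 windows of the members (those of Fos, Fosb, Junb, Atf3 and Batf and both windows of Maff), against 17.8% of all 32851 windows of that length. In Fos the matches began at -129 and -66 and in Fosb at -60 relative to the start. TGACATCA was found for Jun, beginning at -45, and in one of the Maff windows, against 2.93% of all windows. Another Maff window held the full palindrome TGACGTCA, which overlaps TGACG, against 1.55% of all windows. The classical AP-1 site TGANTCA was found in 0 of the 11 member windows, against 6.75% of all windows, as was the CArG box of serum response factor, against 1.47%. An E2F site (TTTCCCGC, TTTCGCGC, TTTGCCGC or TTTGGCGC) was found for Fosl2 alone, beginning at -206, against 1.86% of all windows. TATAAA, in 12.4% of all windows, was found for Fos, beginning at -33. These matches are descriptions of letters in a short window and not measured sites. Sequence further upstream was not searched, so a count of 0 says nothing about elements outside the window.

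Array medians ran from 5.94 to 6.02 on the log2 scale. Of 11 HSC markers 9 were measured, and they lay between 7.14 and 11.8 in all 4 pools. Of the targeted genes, Rbl2 (p130) showed log2 values of 7.82 and 8.21 in deficient HSC and 8.94 and 8.75 in wild type HSC. Rb1 had 9.82 and 9.72 in deficient HSC and 9.37 and 9.58 in wild type HSC. Rbl1 (p107), deleted by label in both groups, had 5.35 and 5.42 in deficient HSC, against 5.92 and 6.77 in wild type HSC. On the other Rbl1 probe sets the groups overlapped, with log2 differences, deficient minus wild type, of -0.00087, 0.028 and 0.032. The second Rb1 probe set differed by 0.46, with overlap, and the second Rbl2 probe set by -0.33, without overlap. Where the probes of the targeted genes lie with respect to the deleted exons is unstated in the sources used here, so these values do not check the labels. For Actb, the 3′ control probe set exceeded the 5′ one, a reading of RNA quality, by 3.13 and 2.95 in deficient HSC and 2.32 and 2.81 in wild type HSC, without overlap. The same reading for Gapdh was 2.79 and 2.50 in deficient HSC and 2.40 and 2.58 in wild type HSC, with overlap. The Y-linked gene Eif2s3y stood at 8.50 and 9.64 in deficient HSC, against 9.93 and 10.29 in wild type HSC. The part of RNA quality and of the animals' sex in the results below was not tested.

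Across all genes limma passed 0 genes higher (0% of 18193) and 0 lower (0%) in the deficient pools at an adjusted p under 0.05, and thus no AP-1 member. At an unadjusted p under 0.05 it listed 399 genes higher (2.19%) and 735 lower (4.04%), among them 2 members, Fos and Jund, both higher. An exact two-sided permutation test of 2 pools against 2 cannot give a p below 0.333, so only the fit across all genes was used. Of the 10 members, 8 had a difference above 0, against 49.2% of all genes, with a median log2 difference of 0.43 against -0.0038 over all genes. Without deficient pool 2 the number above 0 was 5 of 10 and the median 0.13. Both deficient pools lay above both wild type pools for 4 members (Fos, Fosb, Junb and Jund), against 17% of all genes, and below them for Batf, against 18.5%. A difference of at least 2-fold upward was seen for Fos, Fosb and Jund, against 0.528% of all genes. The members were chosen with earlier results of these data known, so these counts describe them and are not tests. In pooled cells, more RNA per cell and more cells that hold the RNA cannot be told apart.

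**Figure D1:**
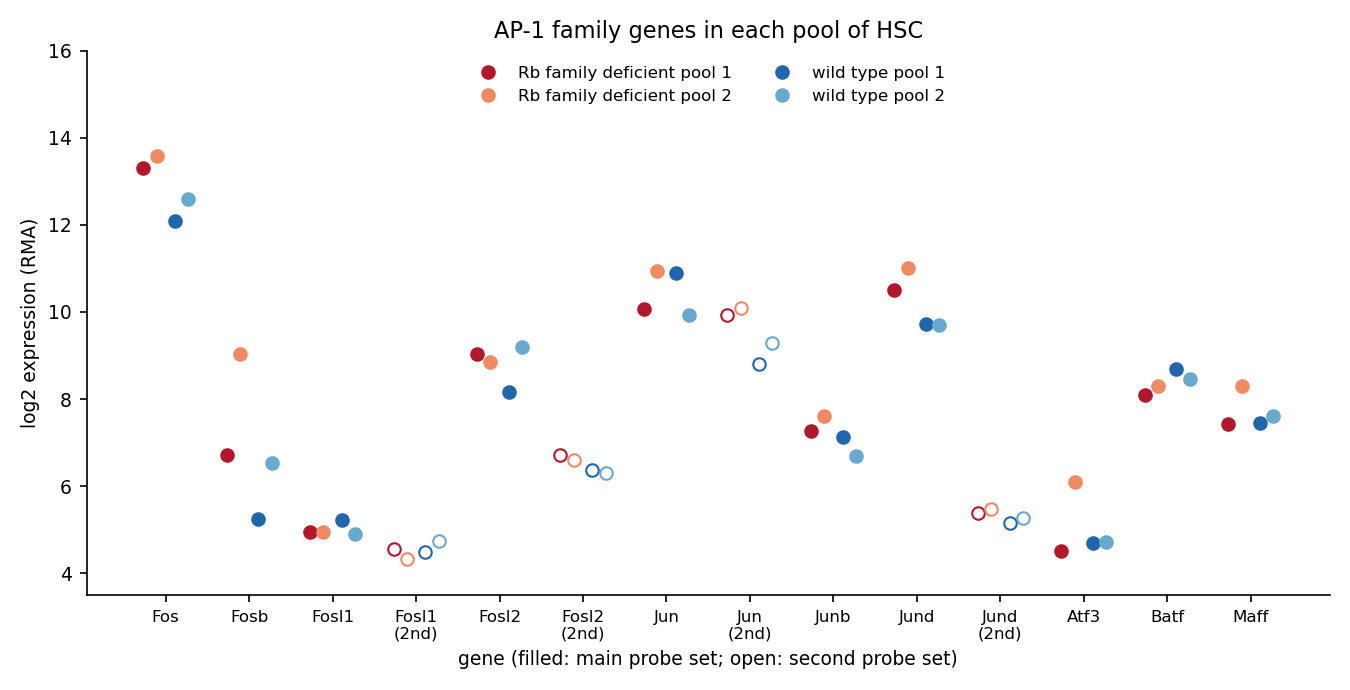
RMA log2 expression of each AP-1 family gene in the 4 pools (vertical axis) by gene and probe set (horizontal axis), filled for the main and open for the second probe set. With the main probe sets, both Rb family deficient pools lie above both wild type pools for Fos, Fosb, Junb and Jund. They also do so with the second probe sets of Fosl2, Jun and Jund. Deficient pool 2 stands apart from the other 3 pools for Fosb, Atf3 and Maff. Heights of different probe sets are not comparable.

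Fos, the founding member of the family and the partner that gives AP-1 much of its activating strength, showed log2 values of 13.30 and 13.58 in deficient HSC, against 12.09 and 12.59 in wild type HSC. The groups did not overlap, and the lowest deficient value lay above the highest wild type value. Fos was 2.15-fold higher (log2 difference 1.10, SE 0.23, 95% interval 0.53 to 1.67, limma adjusted p = 0.761). The difference ran from 0.85 to 1.36 when 1 pool was left out.

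Fosb, a close relative of Fos with short-lived transcripts, showed log2 values of 6.71 and 9.04 in deficient HSC, against 5.24 and 6.53 in wild type HSC. The groups did not overlap, but deficient pool 1 lay only just above wild type pool 2, and deficient pool 2 was far above the other 3. Fosb was 3.97-fold higher (log2 difference 1.99, SE 0.83, 95% interval -0.11 to 4.09, limma adjusted p = 0.796). Its difference was 0.83 without deficient pool 2 and 3.15 without deficient pool 1.

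The Fos-related antigens gave smaller differences. Fosl2 (Fra-2), which unlike Fos lacks a strong activation domain, showed log2 values of 9.03 and 8.86 in deficient HSC and 8.15 and 9.19 in wild type HSC. Wild type pool 2 was the highest of the 4 and wild type pool 1 the lowest, so the groups overlapped, and the difference was 0.27 (SE 0.35, 95% interval -0.62 to 1.17), turning to -0.25 without wild type pool 1. The second Fosl2 probe set had 6.71 and 6.59 in deficient HSC, against 6.36 and 6.29 in wild type HSC, with no overlap and a similar difference of 0.32 (SE 0.14). Fosl1 (Fra-1), a factor best known from invasive tumour cells, had 4.94 and 4.94 in deficient HSC and 5.23 and 4.90 in wild type HSC. Its groups overlapped, its difference was -0.12 (SE 0.17, 95% interval -0.56 to 0.31), and the second probe set gave -0.17 (SE 0.17).

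Of the Jun genes, Jund, the member least tied to stimulation in most cells and a brake on proliferation in fibroblasts, had the lowest p of the family. Its log2 values were 10.50 and 11.01 in deficient HSC, against 9.72 and 9.70 in wild type HSC. The wild type pools were nearly equal and both deficient pools lay above them. Jund was 2.07-fold higher (log2 difference 1.05, SE 0.21, 95% interval 0.52 to 1.58, limma adjusted p = 0.761), and between 0.79 and 1.30 when 1 pool was left out. The second Jund probe set had 5.38 and 5.47 in deficient HSC, against 5.16 and 5.26 in wild type HSC, again without overlap, at a smaller difference of 0.21 (SE 0.14). With the mean of both probe sets Jund differed by 0.63.

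Junb, which often opposes Jun in growth control, showed log2 values of 7.26 and 7.61 in deficient HSC, against 7.12 and 6.68 in wild type HSC. The groups did not overlap, though deficient pool 1 and wild type pool 1 lay close together. Junb was 1.45-fold higher (log2 difference 0.53, SE 0.22, 95% interval -0.028 to 1.10, limma adjusted p = 0.796). When wild type pool 2 was left out it was 0.32, and when deficient pool 2 was, 0.36.

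Jun, the main dimer partner of Fos and a promoter of cell cycle entry, gave different answers with its 2 probe sets. The main one had 10.06 and 10.95 in deficient HSC and 10.89 and 9.93 in wild type HSC. One pool of each group was high and the other low, and the difference was 0.10 (SE 0.42, 95% interval -0.98 to 1.17, limma adjusted p = 0.981). It was -0.35 when deficient pool 2 was left out and -0.38 when wild type pool 2 was. The other had 9.93 and 10.10 in deficient HSC, against 8.81 and 9.28 in wild type HSC. Here both deficient pools lay above both wild type pools and the difference was 0.96 (SE 0.21, 95% interval 0.43 to 1.49), with an adjusted p = 0.701 in the limma fit over all probe sets. The mean of both probe sets differed by 0.53. Which part of the Jun transcript each probe set reads is not given in the sources used here, and what sets them apart was not tested.

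The remaining members belong to the ATF, BATF and small Maf branches of the bZIP proteins. Atf3, a stress-induced factor that represses many targets as a dimer with itself, showed log2 values of 4.51 and 6.09 in deficient HSC and 4.69 and 4.71 in wild type HSC. Only deficient pool 2 lay above the array medians, which ran from 5.94 to 6.02. That pool stood alone above 3 nearly equal pools. The difference of 0.60 (SE 0.51, 95% interval -0.68 to 1.88) turned to -0.19 without that pool.

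Maff, a small Maf protein that lacks an activation domain, showed the same arrangement, with 7.43 and 8.29 in deficient HSC and 7.46 and 7.60 in wild type HSC. Its difference was 0.33 (SE 0.30, 95% interval -0.44 to 1.10), or -0.10 without deficient pool 2.

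Batf, which pairs with Jun proteins and restrains Fos-driven transcription in lymphocytes, was the only member with both deficient pools below both wild type pools. Its log2 values were 8.09 and 8.29 in deficient HSC, against 8.69 and 8.45 in wild type HSC. It was 1.30-fold lower (log2 difference -0.38, SE 0.17, 95% interval -0.80 to 0.047, limma adjusted p = 0.802), and between -0.50 and -0.26 when 1 pool was left out. Batf and Fos lie near each other on mouse chromosome 12 with 1 protein-coding gene, Jdp2, between them in the RefSeq table. Jdp2, a bZIP repressor of AP-1, had 8.93 and 8.82 in deficient HSC, against 8.85 and 8.83 in wild type HSC, a difference of 0.033 (SE 0.14). The neighbours thus had differences of 1.10, 0.033 and -0.38 in that order along the chromosome.

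**Figure D2:**
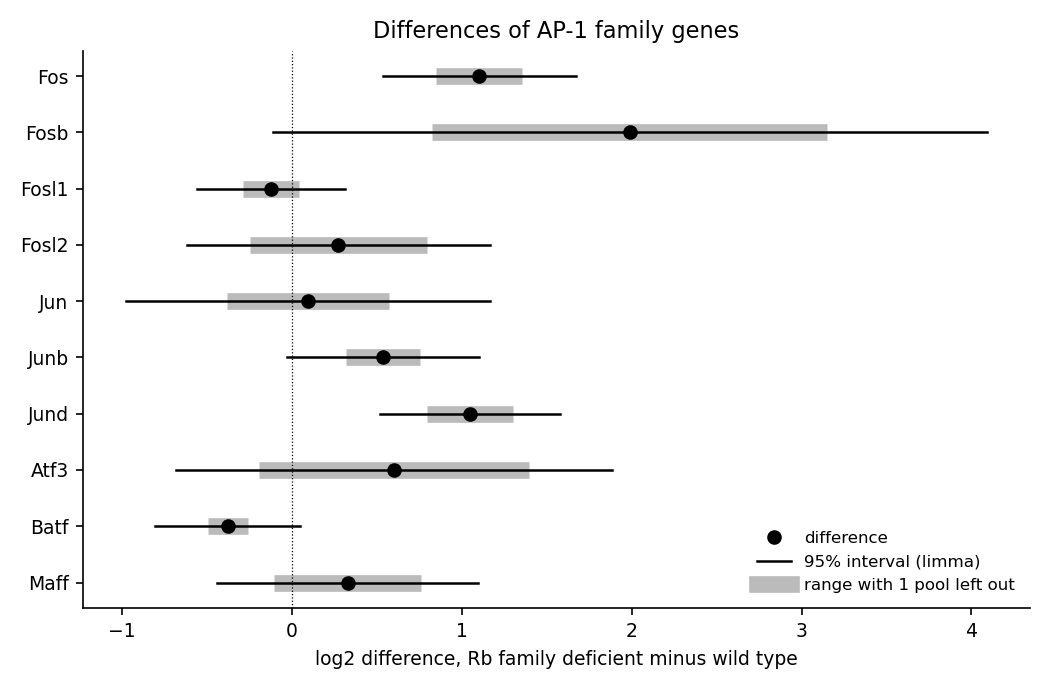
Log2 difference of each AP-1 family gene, Rb family deficient minus wild type (points), with limma's 95% interval (lines) and the range when 1 pool is left out (grey bars). The intervals of Fos and Jund lie above 0. The grey bars of Fosl1, Fosl2, Jun, Atf3 and Maff cross 0, and that of Fosb runs from 0.83 to 3.15.

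The pools of a group differed from each other more in several members than in most genes. Between the deficient pools, pool 2 was the higher for 8 of the 10 members, with a median difference of 0.43 where the median over all genes was near 0. Fosb differed between those pools by 2.33, more than all but 0.115% of genes, Atf3 by 1.59, more than all but 0.335%, and Jun and Maff by 0.88 and 0.87. Jund differed there by 0.51, and 10.2% of genes differed by more. Fos differed by 0.28 there, and 32.5% of genes differed by more. Between the wild type pools Fos differed by 0.50, and 14.8% of genes differed by more. Between the wild type pools, Fosb (1.29) and Fosl2 (1.04) were higher and Jun lower in pool 2 (-0.95), while Atf3 and Jund, at 0.019 and -0.018, were nearly equal. Over the 10 members pool 2 was the higher of the wild type pools for 5. The difference between the group means was larger than both pool differences for 4 members (Fos, Junb, Jund and Batf), against 23.3% of all genes.

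**Figure D3:**
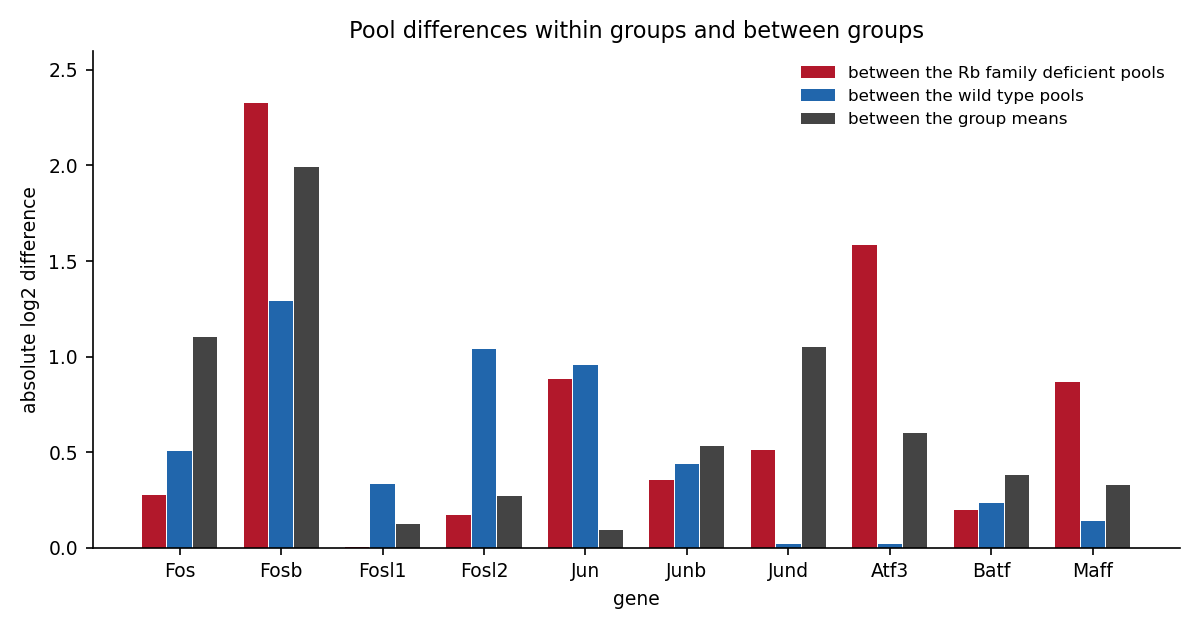
Absolute log2 difference (vertical axis) for each AP-1 family gene between the Rb family deficient pools, between the wild type pools and between the group means. The group bar is the tallest for Fos, Junb, Jund and Batf only, and Fosb has the tallest bars, 2.33 between the deficient pools, 1.29 between the wild type pools and 1.99 between the groups.

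By a fixed measure of likeness, the Euclidean distance between log2 values centred on each gene's own mean over the 4 arrays, Fabp4, Rflnb, Mreg, Cdc25c and Csf2rb had the patterns nearest to that of Fos. Fabp4 had 5.67 and 5.79 in deficient HSC, against 4.36 and 4.75 in wild type HSC. Jund ranked 25 among 16312 other named genes in distance to Fos, Junb 795 and Maff 1096. Fosb, with its large pool differences, ranked 15602, and Batf 14308. With 4 arrays such ranks are descriptions.

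The other bZIP genes on the list of AP-1 partners and relatives did not lie to one side. Of 32 measured, 17 were above 0, with a median of 0.028, and limma passed 0 over all genes, with 3 up and 2 down at an unadjusted p under 0.05. For this and the later lists, the shares of all genes at that limma p were 2.19% up and 4.04% down. Batf2, an interferon-induced relative of Batf, had 6.72 and 6.87 in deficient HSC, against 7.93 and 7.37 in wild type HSC, a difference of -0.86 (SE 0.23). Cebpd, a C/EBP factor of the acute phase response, had 8.69 and 8.32 in deficient HSC, against 6.97 and 7.79 in wild type HSC, a difference of 1.13 (SE 0.31). Atf4, the main factor of the amino acid and endoplasmic reticulum stress responses, differed by 0.46 (SE 0.15) and Creb5 by -0.82 (SE 0.29). The groups did not overlap in these 4 genes, which were named for their low p. Of all 32, both deficient pools lay above both wild type pools for 6, against 17% of all genes. They lay below them for 6, against 18.5% of all genes.

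Genes upstream of AP-1 and genes for the restraint and turnover of its proteins also had medians near 0. Of 24 kinases and factors upstream, 8 were above 0, with a median of -0.074 that turned to 0.011 when deficient pool 1 was left out, and limma passed 0, with 1 up and 1 down at an unadjusted p under 0.05. These were Map3k5 (ASK1), a stress kinase that feeds the JNK and p38 pathways, with 9.79 and 9.99 in deficient HSC, against 9.25 and 9.19 in wild type HSC, and Map2k1 (MEK1), the kinase that activates ERK, with 8.74 and 9.05 in deficient HSC, against 9.59 and 9.43 in wild type HSC. Their differences were 0.67 (SE 0.15) and -0.62 (SE 0.18). Map2k6 differed by -0.32 (SE 0.14) and Mapk9 (JNK2) by 0.19 (SE 0.14). Of the 7 genes for restraint and turnover of AP-1 proteins 2 were above 0, with a median of -0.10 and 0 at an unadjusted p under 0.05. The ubiquitin ligase genes Fbxw7 and Itch and the signalosome gene Cops5 each differed by -0.21 (SE 0.15, 0.16 and 0.16), and Det1 by 0.10 (SE 0.14). Both deficient pools lay below both wild type pools for 4 of the 7, against 18.5% of all genes. They lay above them for 1, Det1, against 17% of all genes.

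Textbook AP-1 target genes lay mostly above 0, 29 of 37 measured, with a median of 0.18, and limma passed 0, with 4 up and 1 down at an unadjusted p under 0.05. The groups did not overlap, deficient pools higher, for 16 of the 37, against 17% of all genes. The chemokine gene Cxcl2 differed by 2.18 (SE 0.23), the cyclooxygenase gene Ptgs2 by 2.15 (SE 0.20) and the cytokine gene Il6 by 1.33 (SE 0.30). Il6 had 5.49 and 6.19 in deficient HSC, against 4.77 and 4.25 in wild type HSC. Cyclin D1 (Ccnd1), which AP-1 helps to induce when cells enter the cycle, went the other way, with 7.01 and 7.59 in deficient HSC, against 9.38 and 8.62 in wild type HSC, a difference of -1.70 (SE 0.33). Cxcl2 had 6.64 and 7.05 in deficient HSC, against 4.88 and 4.45 in wild type HSC. Ptgs2 had 6.42 and 6.50 in deficient HSC, against 4.54 and 4.08 in wild type HSC. Without the genes whose mean was under 6, among them Cxcl2, Ptgs2 and Il6, 18 of 25 were above 0, with a median of 0.10. Mmp9 and Il1b of this list are also neutrophil markers.

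Immediate early genes outside the family lay above 0 for 25 of 28 members, with a median of 0.76, and limma passed 0, with 14 up and 0 down at an unadjusted p under 0.05. Socs3, the feedback inhibitor of cytokine receptors, differed by 2.39 (SE 0.16), Klf2 by 1.18 (SE 0.16), Egr2 by 2.98 (SE 0.55) and the matricellular gene Ccn1 by 1.17 (SE 0.24). Egr2, like Fosb, was highest in deficient pool 2, with 6.09 and 7.82 in deficient HSC, against 3.94 and 4.01 in wild type HSC. The heat shock genes, another group that responds within minutes to stress, lay below 0 for 8 of 10, with a median of -0.40 and 3 lower at an unadjusted p under 0.05 (Hspd1, Hspa1b and Hspa1a). Hspa1a had 6.75 and 9.60 in deficient HSC, against 10.87 and 10.14 in wild type HSC. Immediate early genes and heat shock genes can both respond to the handling of cells, and their part in the AP-1 values was not tested.

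**Figure D4:**
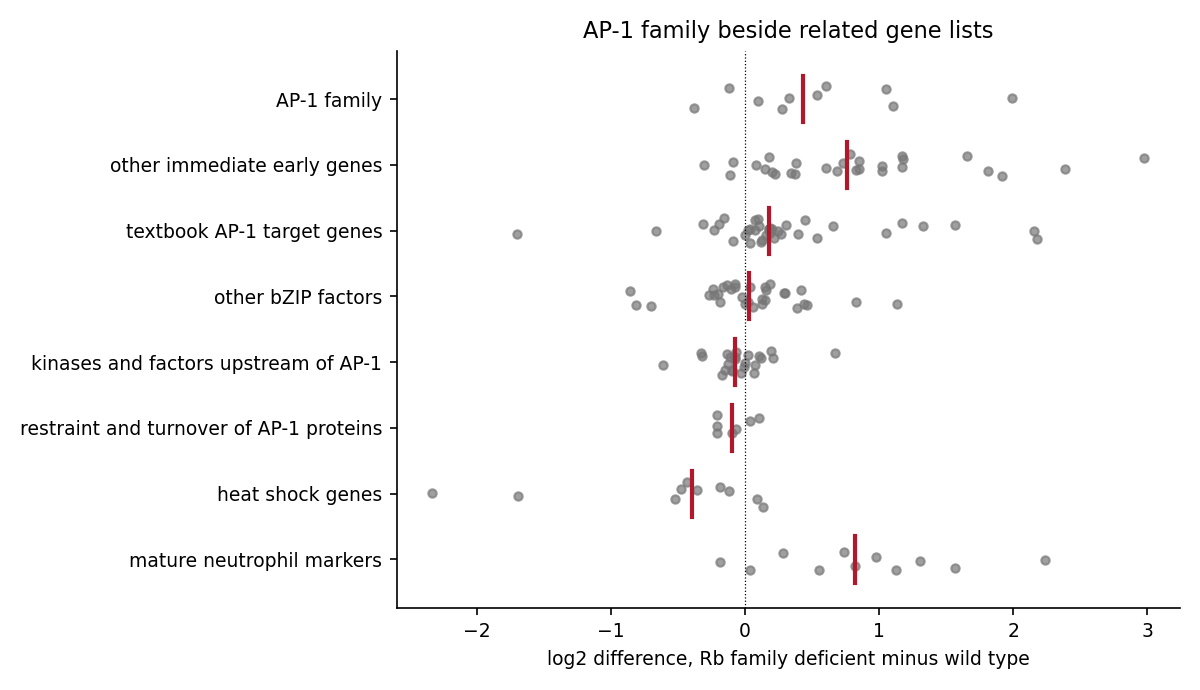
Log2 differences of single genes, Rb family deficient minus wild type (grey points), with the median of each list (red lines). The medians are 0.43 for the AP-1 family, 0.76 for the other immediate early genes, 0.18 for textbook AP-1 targets and -0.40 for heat shock genes, and lie between -0.10 and 0.028 for the other bZIP factors, the upstream genes and the restraint genes.

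Mature neutrophil markers, of cells that the sort should leave out, lay above 0 for 10 of 11 measured, with a median of 0.82, and limma passed 0, with 3 higher at an unadjusted p under 0.05. Their summed level on the linear scale was 67699 and 42768 in deficient HSC, against 19989 and 43351 in wild type HSC, so deficient pool 2 and wild type pool 2 were nearly equal. That sum rests on the few brightest markers, S100a8, S100a9, Ngp and Camp. Single markers differed between those 2 pools, with Mmp8 at 7.49 in deficient pool 2 against 6.37 in wild type pool 2 and Clec4d at 7.36 against 8.45, examples chosen after their values were seen. Within the deficient group all 11 markers were higher in pool 1. Within the wild type group 10 of the 11 were higher in pool 2. The part of neutrophil RNA in the AP-1 values was not tested. Values cannot be exactly 0 on this scale, and no marker is said to be absent.

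**Figure D5:**
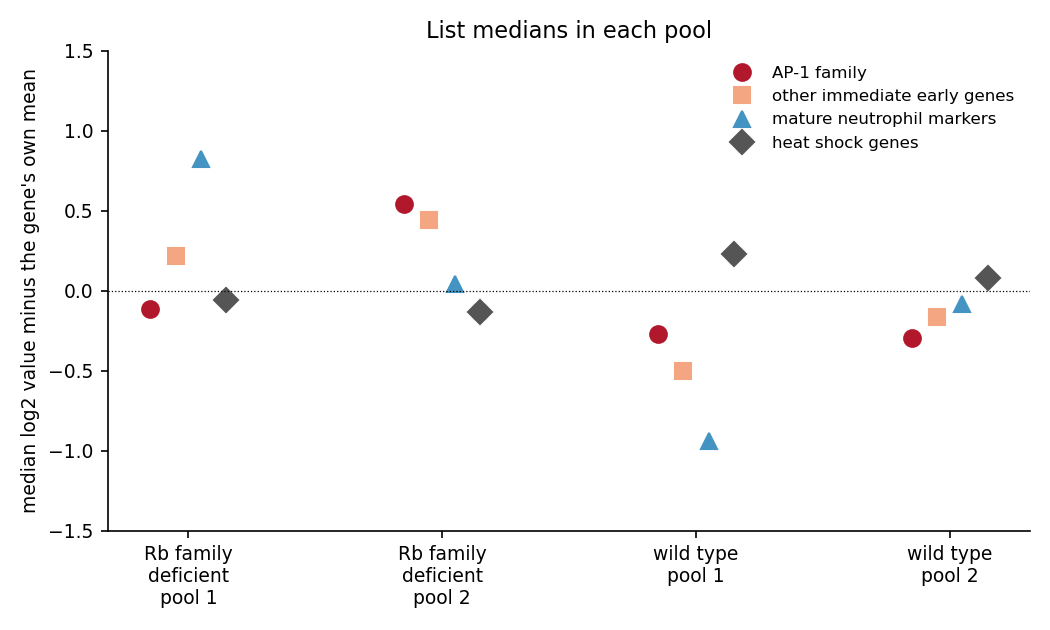
Median over each list of a gene's log2 value minus its own mean over the 4 arrays (vertical axis) in each pool (horizontal axis). The AP-1 family is highest in Rb family deficient pool 2 (0.54), the mature neutrophil markers in deficient pool 1 (0.82), and the heat shock genes in wild type pool 1 (0.23).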

How the data were processed

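Expression was measured in 2 Rb family deficient and 2 wild type pools of sorted HSC, with Trizol RNA and biotinylated cRNA per the labels. The deposited unit is log2 expression, 1 value for each probe set on each array, produced by the authors with RMA per the submitters' processing notes, which also name limma and give no versions. Because RMA forces similar distributions on all arrays, an altered RNA content of the cells stays hidden, and folds of dim probe sets are compressed. Detection calls and scanner files were not used here, and precision is set by the small number of arrays.

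Of 45101 probe sets, 64 were array controls, 34945 had 1 gene symbol, 932 several and 9160 none. Symbols were updated through Entrez IDs with RefSeq (GRCm38.p6), which held 34741 of them. Each of 18193 genes was given by its brightest probe set. Differences were fitted with limma 3.58.1 (R 4.3.3, lmFit and eBayes) without a block, p-values adjusted over all genes by Benjamini-Hochberg and a threshold of 0.05. SEs are moderated. The fit was tested on simulated data. Groups came from the sample titles. Named genes are the members, the targeted genes, in each list up to 4 of lowest p, and the 5 genes nearest to Fos. The members and lists were chosen with earlier results of these data known, so lists are described by counts and medians. Alternatives left out each pool, blocked on the pool number, used other probe sets, centred arrays, dropped dim genes or let the variance prior follow the level.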

Additional observations from a re-analysis of the deposited data

How the results depend on the processing

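No member passed the adjusted threshold under any alternative run, with limma adjusted p values from 0.458 to 1 for Fos and 0.467 to 1 for Jund, and the number of genes past it was 0 in each direction throughout. With 1 pool left out the lone pool is assumed to vary like the other group. Counts at an unadjusted p under 0.05 then ran from 244 to 689 higher and 317 to 1082 lower, and the members that turned sign ran from -0.29 to 0.043 (Fosl1), -0.25 to 0.79 (Fosl2), -0.38 to 0.57 (Jun), -0.19 to 1.39 (Atf3) and -0.10 to 0.76 (Maff), while Junb ran from 0.32 to 0.75. Fos, Fosb, Junb, Jund and Batf kept their direction under every alternative. The ranges of counts and medians that follow come only from the fits with 1 pool left out. The main fit and the other alternatives are not in these ranges and can lie outside them. Members above 0 ran from 5 to 8, and other list counts above 0 from 9 to 12 (upstream genes), 1 to 2 (restraint), 6 to 11 (monocyte and macrophage), 3 to 5 (B cell), 2 to 6 (T and NK cell), 1 to 5 (erythroid), 3 to 6 (megakaryocyte) and 3 to 5 (endothelial and stromal). List medians ran from -0.0046 to 0.012 (other bZIP), 0.11 to 0.16 (AP-1 targets), 0.52 to 0.92 (other immediate early), -0.47 to -0.15 (heat shock), -0.28 to -0.0094 (HSC markers), 0.36 to 1.58 (neutrophil), -0.36 to 0.32 (erythroid), -0.041 to 0.30 (endothelial and stromal), -0.13 to 0.011 (upstream genes), 0.092 to 0.42 (B cell), -0.032 to 0.25 (T and NK cell), -0.012 to 0.26 (monocyte and macrophage) and -0.25 to 0.19 (megakaryocyte).

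Centring arrays on the median of all genes shifted that median by 0.054 and gave 601 genes higher and 530 lower, with medians of 0.082 (other bZIP), -0.045 (restraint) and 0.23 (AP-1 targets). Centring on all probe sets, chosen after seeing the data, shifted it by -0.054 and gave 298 higher and 1009 lower. Keeping the 11399 genes with a mean of at least 6 gave 226 higher, and left fewer list genes: 18 AP-1 targets above 0 (median 0.10), 5 monocyte and macrophage, 2 B cell, 2 T and NK cell and 3 endothelial and stromal markers. Of the AP-1 family, the dim members Fosl1 and Atf3 dropped out, and 7 of the 8 kept were above 0. Averaging all probe sets of a gene, the upstream genes had a median of 0.018 with 13 above 0, and the HSC markers a median of -0.030. When probe sets without _x_at or _s_at names took precedence, the other bZIP genes had a median of -0.012. The cause of these moves was not tested, except that fewer genes enter under the filter. The deviations of same-numbered pools from their group means had a correlation of r = -0.19 across genes, which are not independent replicates. Whether same-numbered pools were handled together cannot be told from this value, and the main fit used no block. A replicate block gave 457 genes lower at an unadjusted p under 0.05, and the crossed pairing, chosen after seeing the data, 1151, with 0 past the adjusted threshold in both.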

Other observations

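Markers of other cell types outside the gate were described beside the family. Monocyte and macrophage markers had a median log2 difference of 0.12 with 11 of 12 above 0, all between -0.033 and 0.24, and 0 at an unadjusted limma p under 0.05. B cell markers had a median of 0.26 (5 of 5 above 0), T and NK cell markers 0.13 (5 of 6), erythroid markers 0.23 (4 of 5), megakaryocyte markers 0.016 (3 of 6), and endothelial and stromal markers 0.18 (5 of 6). The platelet receptor gene Gp1bb had 8.90 and 9.33 in deficient HSC, against 7.91 and 7.97 in wild type HSC, and differed by 1.17 (SE 0.19, limma adjusted p = 0.761). When 1 pool was left out, the medians of the monocyte and macrophage, T and NK cell, erythroid, megakaryocyte, and endothelial and stromal markers took both signs. The HSC markers had a median of -0.19, with 2 lower and 1 higher at an unadjusted limma p under 0.05. Procr, the protein C receptor gene, differed by -0.85 (SE 0.17), Mecom by -0.69 (SE 0.16), Kit by -0.59 (SE 0.28) and Ctnnal1 by 0.75 (SE 0.24). Both deficient pools lay below both wild type pools for 4 of the 9 measured (Procr, Mecom, Kit and Fgd5), against 18.5% of all genes. They lay above them for Ctnnal1, against 17% of all genes.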
